A study of Mus musculus with 6 samples.

Results

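The Wnt pathway antagonists studied here are 10 mouse genes, Dkk1, Dkk2, Dkk3, Sfrp1, Sfrp2, Frzb, Wif1, Kremen1, Kremen2 and Ctnnbip1. They were chosen by name, with earlier results of these data known. Every non-control probe whose RefSeq accession mapped to 1 of these symbols was taken. This gave 12 of the 41174 non-control probes, with 2 probes each for Dkk1 and Sfrp1 and 1 for each other gene. The arrays were 6 one-colour Agilent Whole Mouse Genome arrays of primary astrocytes, purchased as a culture from the cerebral cortex of C57BL/6 mice at embryonic day 18. On 3 arrays the cells had been transfected with miR-29, a mixture of human (hsa) precursors of its a, b and c forms, and on the other 3 with a negative control precursor. Both groups received their precursor at 80 nM with the same transfection reagent 3 weeks after plating and were harvested 48 h later. The replicates are described as extraction replicates, and nothing in the labels places them in separate cultures, so p-values speak for the spread of these 6 samples alone, and that spread may be technical.

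Wnt proteins bind Frizzled receptors and the co-receptors Lrp5 and Lrp6, which keeps beta-catenin from being destroyed and lets it act with TCF/LEF factors on target genes. Dickkopf proteins bind the co-receptors, and Kremen proteins are cell surface partners of Dickkopf. Secreted Frizzled-related proteins (Sfrp1, Sfrp2, and Frzb, also called Sfrp3) and Wif1 bind Wnt proteins outside the cell, and Ctnnbip1 binds beta-catenin inside it and blocks its contact with TCF factors. In human osteoblasts, DKK1, KREMEN2 and SFRP2 have been described as targets of miR-29. Astrocytes of the developing cortex are among the cells that make and respond to Wnt signals.

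The mature mouse sequences of the miR-29 family are shown because pairing of their seed, bases 2 to 8 from the 5′ end, is what brings a microRNA to its targets. They are from RefSeq (GRCm38.p6), and the capitals mark the seed.
mmu-miR-29a-3p: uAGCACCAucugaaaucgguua
mmu-miR-29b-3p: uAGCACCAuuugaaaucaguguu
mmu-miR-29c-3p: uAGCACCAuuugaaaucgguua
All 3 share 1 seed. Counted from the 5′ end with the miR-29a base first, miR-29a and miR-29c differ by C10U alone, and miR-29b has 23 bases against 22 in the others. The seed was not searched for in transcripts here.

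By the flag of the scanner software 61.9% to 66.8% of probes per array were well above background, and 0 spots were saturated. Values are processed signals scaled to the 75th percentile of each array, called the signal below, and log2 fold changes are miR-29 minus control. Of the 26428 probes tested 58% passed an adjusted p of 0.05 (limma, Benjamini-Hochberg over all tested probes), 22.7% lower and 35.3% higher, so a call by itself is common in these data. All 12 astrocyte markers were above background on all 6 arrays, and 8 of them rose and 1 fell, with the largest changes for the glutamate transporter gene Slc1a3 (log2 fold change 1.68), Fabp7 (1.31) and Aldh1l1 (0.74). Their summed signal was 60753 to 67291 in miR-29 cells and 42780 to 44769 in control cells. Markers of other cells were also present. Of 16 tested markers of fibroblasts, meninges and mural cells 5 fell and 8 rose, with a summed signal of 432742 to 460947 in miR-29 cells and 498981 to 538779 in control cells, and Slc22a6, Rgs5 and Kcnj8 did not pass the background filter. Without the collagen genes Col1a1 and Col1a2 the sum was 367400 to 394400 in miR-29 cells and 281300 to 309400 in control cells. Most of that remainder was the contractile genes Acta2, Tagln and Cnn1, which rose (log2 fold changes 0.62, 0.68 and 1.34). Beside the collagen genes, S100a4 (-1.21), Pdgfra (-0.96) and Pdgfrb (-0.67) fell with their brightest probes, so the list did not move in 1 direction outside the collagens. The largest changes in the list were those of Col1a2 (log2 fold change -2.27) and the smooth muscle genes Myh11 (1.61) and Cnn1 (1.34). Only 4 of 10 microglia markers passed the filter, and Aif1, Itgam, Cx3cr1, C1qa, C1qc and Ptprc did not. Of the 4 tested 2 fell and 1 rose, and their summed signal was 1797 to 1936 in miR-29 cells and 2404 to 2678 in control cells. Nearly all of that sum was Tmem119, which fell (log2 fold change -0.43), and the sums of the other 3 overlapped between the groups. Csf1r fell with its brightest probe (-1.39) and rose with the other (0.37, adjusted p = 0.0235), and P2ry12 (0.53) did not pass with normexp (adjusted p = 0.376) or spike-in scaling (adjusted p = 0.215). The sums for 12 tested neuron markers (6 fell, 3 rose; Snap25 and Gad1 too dim) were 3945 to 4078 in miR-29 cells and 4984 to 5333 in control cells. For 10 oligodendrocyte lineage markers (2 fell, 5 rose; Mog too dim) they were 5609 to 5884 in miR-29 cells and 4960 to 7511 in control cells. For 5 endothelial markers (2 fell, 2 rose; Pecam1, Tek, Cldn5 and Emcn too dim) they were 1090 to 1141 in miR-29 cells and 1359 to 1568 in control cells. Few bright genes weigh most in these sums. Flt1 (log2 fold change -0.35) was most of the endothelial sum. Among the brightest neuron markers Stmn2 fell (-0.95) and Tubb3 rose (0.48). In the oligodendrocyte list Mag did not pass, and its signals were 2441, 4983 and 4417 in control cells. The part of these cells in the results on the antagonists was not tested, and in such cultures fewer cells of a type and less RNA per cell cannot be told apart.

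Of the 10 antagonists, 8 had a probe that passed the filter, with 9 probes in all, each well above background on all 6 arrays. Of these 9 probes 5 fell, 1 rose and 3 did not pass. The median log2 fold change was -0.38, against 0.072 over all tested probes. The share past the threshold in either direction lay near the 58% of the background, while 5 of 9 were lower where 22.7% of all probes were. The groups did not overlap for 8 of the 9 probes, where 66% of all tested probes did not overlap. None reached a 2-fold change (0 of 9 probes, against 7.1% of all tested probes). Dkk1, Dkk2, Kremen1 and Ctnnbip1 fell, Frzb rose, Dkk3 and Wif1 did not pass, and the probes of Sfrp1 differed. Sfrp2 and Kremen2 gave no measured level.

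**Figure D1:**
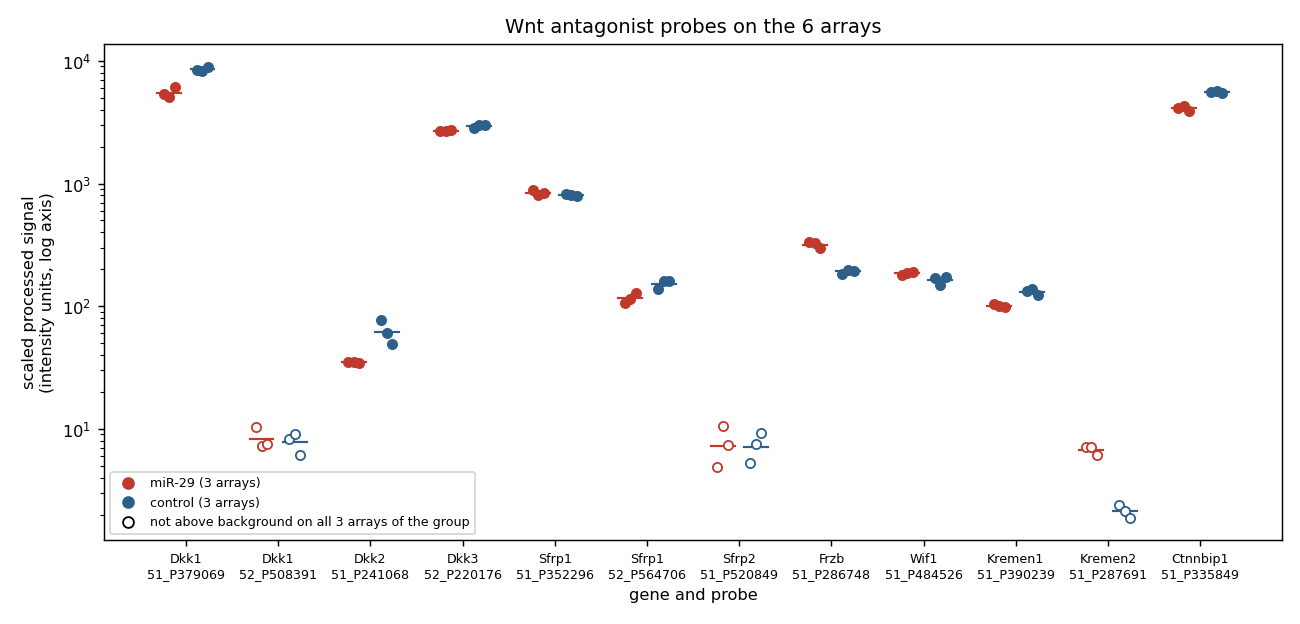
Signal of each Wnt antagonist probe on each array (log axis, intensity units after scaling), with miR-29 arrays in red left of control arrays in blue, 1 point per array and a bar at the geometric mean. Open points belong to groups in which the probe was not above background on all 3 arrays. Probes bind with different strength, so heights compare groups within a probe and not genes with each other.

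Dkk1, the best known inhibitor that takes Lrp5 and Lrp6 away from the Wnt receptor complex, fell. Its bright probe had signals of 5384, 5089 and 6133 in miR-29 cells, against 8497, 8292 and 8987 in control cells. Every miR-29 array lay below every control array. The log2 fold change was -0.64 (SE 0.082, adjusted p = 0.00114, n = 3 per group), a level of 0.643 times the control. Slide 1 carried all 3 miR-29 arrays and the first control replicate, and the value there was -0.62. The other Dkk1 probe was at the floor of detection, with signals of 10.3, 7.26 and 7.46 in miR-29 cells and 8.32, 9.12 and 6.13 in control cells. It was above background on 1 miR-29 array and on 0 control arrays, its groups overlapped, and it was not tested.

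Dkk2, a relative of Dkk1 that can inhibit or activate the pathway depending on the cell, had the largest fall among the 9 probes. Its signals were 35.1, 35.3 and 34.4 in miR-29 cells, against 76.9, 60.9 and 49.1 in control cells. The miR-29 arrays were nearly equal and the control arrays were spread, with no overlap. The log2 fold change was -0.81 (SE 0.157, adjusted p = 0.0058). Against control replicate 1 on the same slide it was -1.14, since the control arrays of slide 2 were lower by 0.492 than that array on the log2 scale. The call was lost with normexp background correction, an alternative treatment of dim spots (-0.34, adjusted p = 0.0534).

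Dkk3 is a divergent Dickkopf that does not act through Lrp6 in the way of Dkk1. Its signals were 2675, 2662 and 2742 in miR-29 cells and 2848, 3000 and 3008 in control cells. The groups did not overlap, but the difference was small (log2 fold change -0.13, SE 0.0484, 95% interval -0.25 to -0.014) and did not pass (adjusted p = 0.0563). It passed with quantile normalization, spike-in scaling and a trended variance, and without control replicate 1 (-0.16, adjusted p = 0.0258).

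Kremen1, a transmembrane receptor that binds Dickkopf and takes Lrp6 off the cell surface, fell. It had signals of 105, 99.7 and 98.1 in miR-29 cells, against 132, 139 and 123 in control cells. There was no overlap, and the log2 fold change was -0.38 (SE 0.0638, adjusted p = 0.00326), with -0.39 on slide 1. Kremen2, its close relative, was well above background on 0 of the 6 arrays. Its signals of 7.14, 7.05 and 6.15 in miR-29 cells and 2.41, 2.15 and 1.88 in control cells do not overlap, but all lie under the lowest signal that counted as above background (8.74 to 11 on the 6 arrays), and no fold is given.

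**Figure D2:**
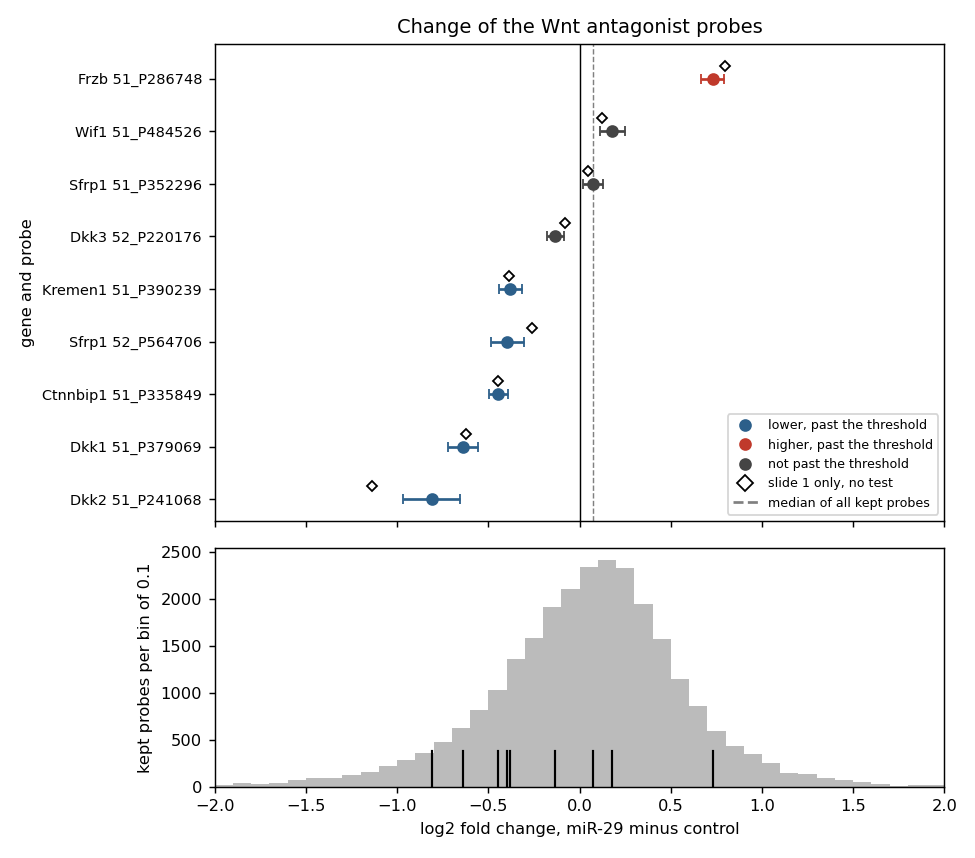
Top, log2 fold change (miR-29 minus control) of the 9 tested Wnt antagonist probes with its SE, and as open diamonds the same difference within slide 1, where 1 control array was present. Bottom, the distribution over all 26428 tested probes (bins of 0.1) with the 9 probes as black ticks. Dkk2 lies lowest at -0.81 and Frzb highest at 0.73, both inside the range of the distribution.

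Among the antagonists that bind Wnt proteins, Frzb rose. This secreted Frizzled-related protein had signals of 332, 325 and 299 in miR-29 cells, against 183, 199 and 194 in control cells. All miR-29 arrays lay above all control arrays. The log2 fold change was 0.73 (SE 0.0637, adjusted p = 0.000273), a level 1.66 times the control, and 0.80 on slide 1. It was higher than the change of 92.1% of the tested probes, where that of Dkk1 was higher than 9.35% and that of Dkk2 higher than 6.02%.

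Sfrp1, which is made by progenitors and glia of the cortex, gave different results with its 2 probes. The brighter probe had signals of 892, 806 and 839 in miR-29 cells and 817, 803 and 788 in control cells. The groups overlapped, and the log2 fold change of 0.074 did not pass (95% interval -0.062 to 0.21, adjusted p = 0.291). The dimmer probe had signals of 106.7, 115 and 127 in miR-29 cells, against 139, 161 and 159 in control cells. It fell without overlap (-0.40, SE 0.0919, adjusted p = 0.0116). It did not pass with slides blocked (-0.26, adjusted p = 0.104). Both probes carry the same accession, and what sets them apart was not tested.

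Wif1, a secreted protein with a Wnt-binding domain of its own, had signals of 181, 187 and 188 in miR-29 cells and 170, 150 and 172 in control cells. The groups did not overlap, but the log2 fold change of 0.18 (SE 0.0683, 95% interval 0.012 to 0.34) did not pass (adjusted p = 0.0647). Sfrp2 had signals of 4.85, 10.6 and 7.35 in miR-29 cells and 5.25, 7.47 and 9.2 in control cells. It was above background on 1 miR-29 array and on 0 control arrays, and its groups overlapped. A difference in Sfrp2 was not detectable at this signal.

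Ctnnbip1, the intracellular inhibitor that holds beta-catenin away from TCF factors, fell. Its signals were 4099, 4306 and 3931 in miR-29 cells, against 5603, 5678 and 5500 in control cells. The groups were far apart next to their spread, and the log2 fold change was -0.44 (SE 0.0534, adjusted p = 0.000886). The value on slide 1 was -0.45.

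Scaling bears on the direction of the smaller changes. With the arrays scaled to 6 detected spike-in types, RNAs added in a fixed amount before labelling, the median of all tested probes moved by -0.245. Of all probes past the threshold 28.6% were then higher, against 60.9% with the percentile scaling. Frzb still rose (0.48, adjusted p = 0.0027), and Dkk1 (-0.88), Dkk2 (-1.06), Kremen1 (-0.63) and Ctnnbip1 (-0.69) fell. The values of Wif1 (-0.067) and of the brighter Sfrp1 probe (-0.17) turned negative and did not pass. The difference between the Frzb and Dkk1 probes on the same array, chosen after their values were seen, does not depend on scaling. The pair was picked for its opposite changes, so the difference restates both fold changes and has no test. It was -4.02, -3.97 and -4.36 on the log2 scale in miR-29 cells, against -5.54, -5.38 and -5.54 in control cells. The means differed by 1.37.

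**Figure D3:**
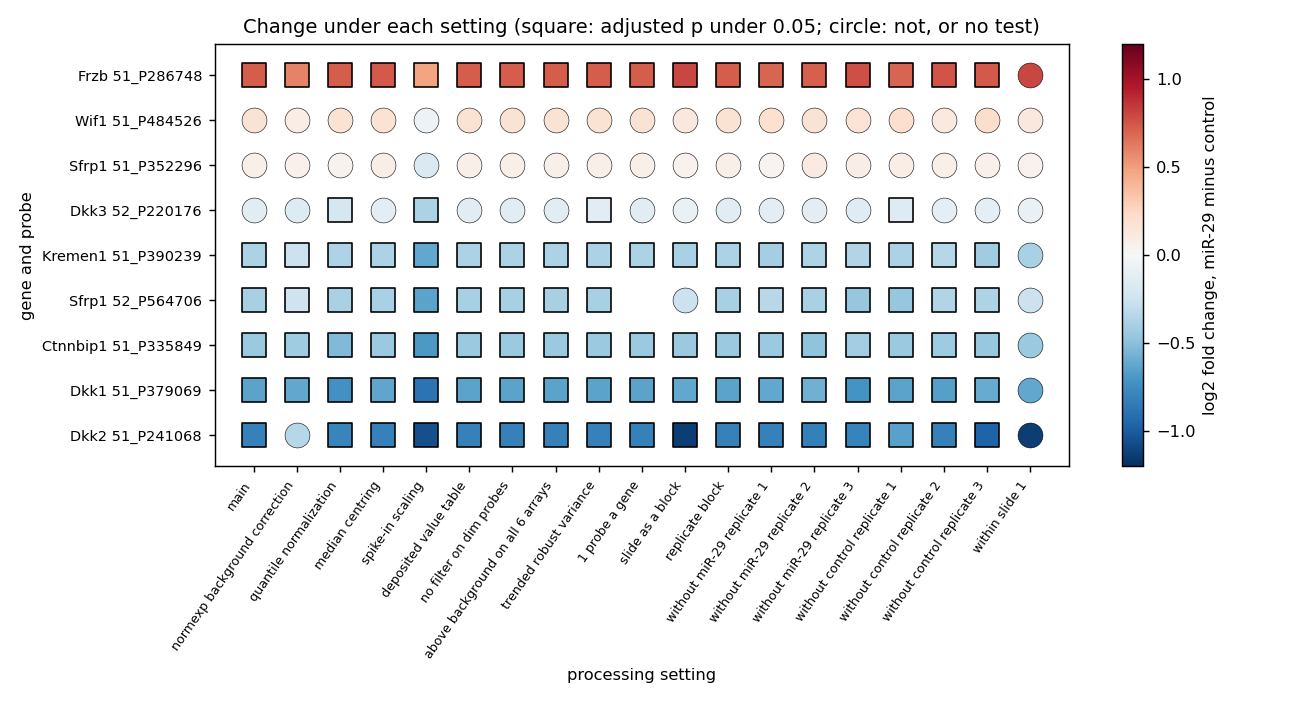
Log2 fold change (colour, miR-29 minus control) of the 9 tested Wnt antagonist probes (rows) under each processing setting (columns). Squares passed an adjusted p of 0.05, and circles did not or had no test. Dkk1, Ctnnbip1, Kremen1 and Frzb were squares under each of the 17 alternatives with a test, and Dkk3 changed sides of the threshold under 4 of them.

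Promoters are shown for the members with the largest changes, the falls of Dkk1 and Dkk2 and the rise of Frzb. They are the 250 bases before the RefSeq start (GRCm38.p6), read 5′ to 3′ on the gene's strand. The capitals mark the letters ATCAAAG or TTCAAAG on either strand, the core that TCF/LEF factors bind.
Dkk1 (chr19:30549497-30549746, minus strand): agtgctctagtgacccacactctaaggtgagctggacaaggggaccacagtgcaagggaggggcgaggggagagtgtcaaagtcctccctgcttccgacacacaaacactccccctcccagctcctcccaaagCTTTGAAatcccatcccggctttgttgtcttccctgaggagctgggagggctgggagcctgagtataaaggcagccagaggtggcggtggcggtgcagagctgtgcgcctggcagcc
Dkk2 (chr3:132085042-132085291, plus strand): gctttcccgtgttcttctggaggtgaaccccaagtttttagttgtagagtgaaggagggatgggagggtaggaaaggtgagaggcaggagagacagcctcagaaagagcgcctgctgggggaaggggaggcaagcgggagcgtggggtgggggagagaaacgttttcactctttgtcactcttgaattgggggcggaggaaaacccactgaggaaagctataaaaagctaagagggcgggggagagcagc
Frzb (chr2:80447397-80447646, minus strand): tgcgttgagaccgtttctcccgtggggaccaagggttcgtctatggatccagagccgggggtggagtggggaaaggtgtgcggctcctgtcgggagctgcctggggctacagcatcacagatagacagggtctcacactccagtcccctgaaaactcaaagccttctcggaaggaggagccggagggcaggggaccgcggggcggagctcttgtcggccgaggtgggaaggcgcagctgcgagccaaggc
The Dkk1 window held 1 match, CTTTGAA, which begins 117 bases before the start. The windows of Dkk2 and Frzb held 0, as did those of Sfrp2, Wif1, Kremen2 and Ctnnbip1. Of all 32851 promoters listed by RefSeq 7.48% held a match. Promoters were matched for 7 of the 10 members. A match is a description of these letters and does not show binding.

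The rest of the pathway was described from lists of 101 other genes, of which 81 were tested with their brightest probe. Of these 23 fell, 19 rose and 39 did not pass, where, of all named genes, 62.4% passed, 24.5% lower and 37.8% higher. Their median log2 fold change was -0.064, against 0.071 over all 13716 named genes tested. Among the antagonists, counted the same way, 4 of 8 genes fell and 1 rose. No probe of Lrp5, Lrp6 or Ccnd1 was analysed here.

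Of 11 other secreted or membrane inhibitors 4 fell, 1 rose and 6 did not pass. With spike-in scaling 8 fell and 1 rose, and with slides blocked 2 fell and 1 rose. The Frizzled-related gene Sfrp4 fell by 0.78 on the log2 scale (adjusted p = 0.000261), with signals of 41.8, 48.7 and 44.9 in miR-29 cells against 76.9, 76.9 and 79.1 in control cells. Trabd2b, a protease that cuts Wnt proteins, fell by 0.49 on the log2 scale. The Lrp5 and Lrp6 inhibitor Sost fell by 0.50 on the log2 scale (adjusted p = 0.0206), but it did not pass when the slide was a block (-0.24, adjusted p = 0.181) or with the replicate block (adjusted p = 0.0501). It also missed the threshold without miR-29 replicate 2 or 3 or control replicate 2 or 3 (adjusted p = 0.0602 to 0.0655). The 1 counted as higher, Shisa2, was not well above background in control cells and was tested only through its signal in miR-29 cells. It was at least 1.86-fold higher, and it did not pass with normexp (0.21, adjusted p = 0.133) or with slides blocked (adjusted p = 0.0819).

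Among 14 genes of Wnt ligands and their secretion 5 fell, 2 rose and 7 did not pass, while 6 fell and 1 rose with spike-in scaling and 3 fell and 3 rose with slides blocked. Wnt2 fell most (log2 fold change -1.67, SE 0.0837, adjusted p = 5.18e-05). Its signals were 469, 405.5 and 498 in miR-29 cells, against 1484, 1433 and 1442 in control cells, which is a larger change than that of any antagonist probe. On the same scale Wnt10a fell by 0.99, and Wnt2b rose by 0.91. Wnt6, counted among the 5, was not well above background in miR-29 cells and was tested only through its signal in control cells. It was at least 1.77-fold lower, and it did not pass with normexp (-0.15, adjusted p = 0.272) or with slides blocked (adjusted p = 0.0842). Of 3 tested R-spondins and norrin, secreted activators of the pathway, Rspo1 rose by 0.69 on the log2 scale. Rspo3 was not well above background in control cells and was tested only through its signal in miR-29 cells. It was at least 1.62-fold higher and did not pass under normexp (0.12, adjusted p = 0.397).

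The 16 receptors and co-receptors had a median log2 fold change of -0.15. Of them 4 fell and 1 rose, while 13 fell and 0 rose with spike-in scaling and 4 fell and 3 rose with slides blocked. The Frizzled genes Fzd1, Fzd8 and Fzd7 fell by 0.57, 0.37 and 0.32 on the log2 scale. Ror1, a receptor for Wnt5a, fell by 1.14 on the log2 scale (above background on 2 of 3 miR-29 arrays), and it did not pass with normexp (-0.23, adjusted p = 0.0839) or with slides blocked (adjusted p = 0.0545).

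Of the 9 genes of the destruction complex, which marks beta-catenin for breakdown, 2 fell, 2 rose and 5 did not pass. With spike-in scaling 2 fell and 0 rose, and with slides blocked 0 fell and 1 rose. The scaffold gene Apc was counted as higher by its brightest probe (log2 fold change 0.22, adjusted p = 0.0461), but another of its probes fell (-0.23, adjusted p = 0.00896). Of its remaining probes 1 rose (0.20, adjusted p = 0.0489) and 1 did not pass (0.065, adjusted p = 0.429). The rise of the brightest probe did not pass with normexp (adjusted p = 0.0921), quantile normalization (adjusted p = 0.0573), median centring (adjusted p = 0.0543), no filter (adjusted p = 0.101) or slides blocked (adjusted p = 0.372), and with spike-in scaling the value was -0.022. It also missed the threshold without any array but control replicate 1 (adjusted p = 0.0683 to 0.127). The calls of Amer1 (log2 fold change 0.74, adjusted p = 0.0388), Gsk3a (-0.26, adjusted p = 0.0129) and Gsk3b (-0.16, adjusted p = 0.0444) ended with slides blocked (adjusted p = 0.355, 0.0934 and 0.0584). Amer1 had 0.22 on slide 1, and the loss of any array but control replicate 1 ended its call (adjusted p = 0.0649 to 0.101). Amer1 did not pass with spike-in scaling or without a filter either (adjusted p = 0.0815 and 0.0811), nor Gsk3a with normexp (adjusted p = 0.0841). Gsk3b missed the threshold without any array but miR-29 replicate 3 (adjusted p = 0.0763 to 0.136). It also missed it with normexp (-0.080, adjusted p = 0.378) and with quantile normalization, median centring, no filter, a trended variance or the replicate block (adjusted p = 0.0634 to 0.106). These values are for the brightest Gsk3b probe. The other Gsk3b probe fell further (-0.36, adjusted p = 0.01155), with -0.37 on slide 1. Axin2, a scaffold of this complex and a widely used readout of beta-catenin activity, did not pass (log2 fold change -0.064, SE 0.143, adjusted p = 0.717). Its signals were 287, 312 and 258 in miR-29 cells and 242, 336 and 324 in control cells, so the groups overlapped, and the value on slide 1 was 0.23.

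Inhibitors that act inside the cell were mostly higher, where 37.8% of all named genes were. The counts were 7 higher, 2 lower and 2 not past the threshold among 11 tested genes, at a median log2 fold change of 0.61 (6 higher and 3 lower with spike-in scaling, median 0.37). The Groucho co-repressors Tle2, Tle1 and Tle4, which hold TCF targets silent, rose by 1.15, 1.01 and 0.79 on the log2 scale. Nkd1, which restrains Dishevelled, rose by 1.00 on that scale (SE 0.124, adjusted p = 0.000982), and by 0.78 with its other probe. Ctnnbip1, which also acts inside the cell but is not among these 11, fell by 0.44 on the log2 scale as given above.

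Among 10 tested genes of Dishevelled, beta-catenin and TCF/LEF factors 3 rose, 2 fell and 5 did not pass. On the log2 scale the factor gene Tcf7 rose by 1.11 (0.84 with its other probe), and Tcf7l1 rose by 0.53 with its brightest probe and did not pass with the other (-0.18, adjusted p = 0.136). The Dishevelled gene Dvl2 and the co-activator gene Pygo2 fell by 0.79 and 0.56 on the log2 scale. Lef1 did not pass the background filter.

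Known targets of beta-catenin had mixed directions. There were 13 tested genes, with 4 lower, 4 higher and 5 that missed the threshold, and some of them are also in the lists above. Spike-in scaling gave 7 falls and 3 rises, at a median log2 fold change of -0.31 against -0.064. Blocking the slides gave 5 falls and 3 rises, at a median of 0.0028. Beside Tcf7 and Nkd1, the receptor gene Tnfrsf19 rose by 1.34 on the log2 scale (adjusted p = 0.0179). It did not pass with slides blocked (adjusted p = 0.106), nor when miR-29 replicate 1 (adjusted p = 0.0529) or control replicate 3 (adjusted p = 0.0566) was left out. Myc, a growth regulator that many other signals also control, fell (log2 fold change -0.82, SE 0.0878, adjusted p = 0.000565), and its other probes fell by 0.96 and 0.92 on the log2 scale.

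Other genes behind these counts lay outside the rule for named genes and were picked after their values were seen. The ligand gene Wnt5a fell by 0.85 on the log2 scale, a call that ended with normexp (-0.27, adjusted p = 0.0633), and Wnt11 fell by 0.38, a call that ended with normexp (-0.17, adjusted p = 0.0557) and with slides blocked (adjusted p = 0.0951). Wls, which carries Wnt proteins to the cell surface, and Lgr5, a receptor of R-spondins, rose by 0.36 and 0.30 and did not pass with spike-in scaling (0.12 and 0.059). The co-repressor gene Tle3 and the Dishevelled antagonist gene Dact1 fell by 0.48 and 0.39 on the log2 scale and passed under all alternatives with a test. The other Dact1 probe did not pass (-0.21, adjusted p = 0.0635). The intracellular inhibitor genes Nkd2, Chd8 and Tle5 rose by 0.64, 0.61 and 0.45, and Tle5 did not pass with spike-in scaling (0.20, adjusted p = 0.0778). The targets Fosl1 and Ccn4 fell by 0.66 and 0.33 on the log2 scale and passed under all those alternatives too. Sostdc1, a secreted inhibitor, fell by 0.24 (adjusted p = 0.0225) and missed the threshold without miR-29 replicate 1 or 3 or control replicate 2 (adjusted p = 0.0612 to 0.0725) and with slides blocked (adjusted p = 0.0928). Sostdc1 also missed the threshold without a filter on dim probes (adjusted p = 0.0581). Bambi, a pseudoreceptor, fell by 0.22 (adjusted p = 0.0171) and missed it without miR-29 replicate 1 or 2 or control replicate 3 (adjusted p = 0.0544 to 0.0599). Dvl1 rose by 0.38 and did not pass with spike-in scaling (0.14, adjusted p = 0.188) or with slides blocked (adjusted p = 0.0571).

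**Figure D4:**
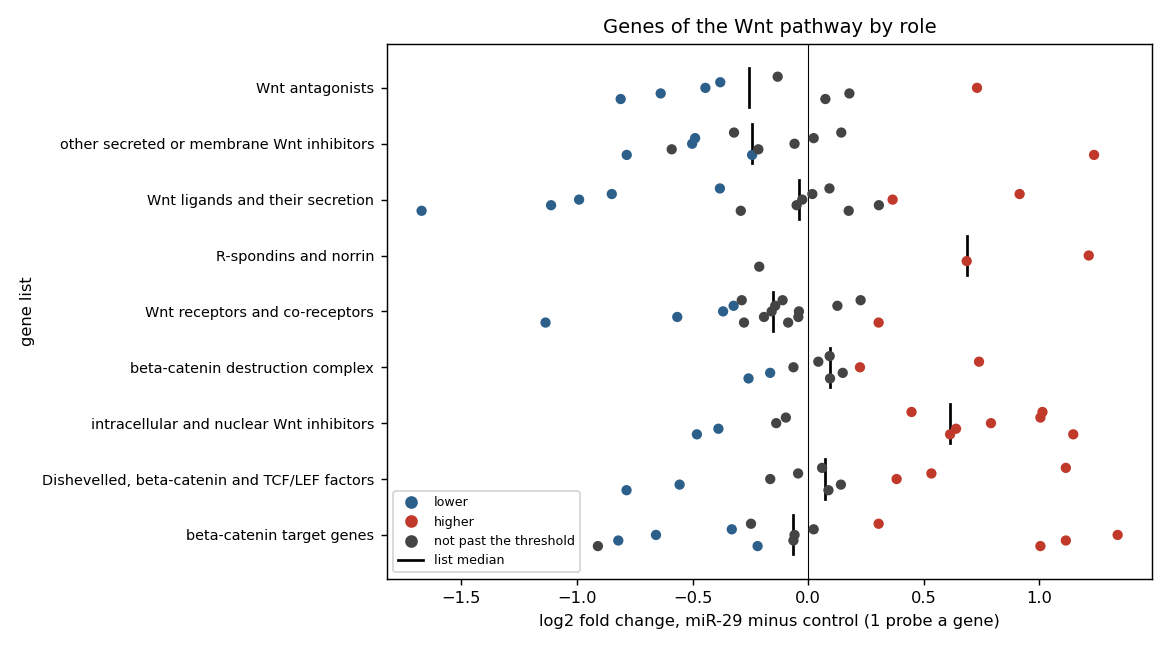
Log2 fold change (miR-29 minus control) of each tested gene of the Wnt pathway, 1 point per gene at its brightest probe, in rows by role, with a black bar at the median of each list. Points are blue where the gene fell, red where it rose and grey where it did not pass. The median of the antagonists was -0.26 and that of the intracellular and nuclear inhibitors 0.61.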

How the data were processed

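The authors' arrays were read by Agilent Feature Extraction, version 10.7.3.1 per the file headers and 10.7 per the submitters' processing notes, and the deposited intensity is net of local background. The deposited value table is that intensity times 1 constant per array (2.63 to 3.43) set by an unstated rule, with medians of 149, 155 and 149 for the miR-29 arrays and 146, 165 and 162 for the control arrays. It is linear and not centred, and served as an alternative. There were 0 columns of other samples.

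The processed signal was divided by the 75th percentile of the array over non-control spots and multiplied by the geometric mean of these percentiles, floored at 1 and taken to log2. Control spots and outliers were dropped, and replicate spots of a probe were averaged. A probe was tested if all 3 arrays of either group had it well above background (26428 of 41174). Accessions matched 1 gene of the GRCm38.p6 table for 26933 probes and none for 14241. Coordinates are given only for RefSeq's promoters and are not those of the array design. The groups were tested two-sided in limma 3.58.1 (R 4.3.3; lmFit, eBayes), and p-values were adjusted by Benjamini-Hochberg over all tested probes, with a threshold of 0.05. A fold against a group in which no array was above background is a bound, taken per array against the lowest signal above background or the probe's own, whichever was higher. The procedure was tested on simulated data. The number of arrays limits the precision.

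Control replicates 2 and 3 were alone on slide 2, so the values within slide 1 rest on 1 control array. Normexp used the median spot and background signals with an offset of 50, because the planned mean signal is not a column of the files used here. The genes named are the members, up to 4 genes past the threshold from each pathway list by size of change, Axin2 and Myc, and up to 3 from each marker list. Neuron, oligodendrocyte lineage and endothelial markers are given as counts and summed signals. Further genes named with the marker sums were picked after their values were seen. The members and lists were chosen with earlier results of these data known.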

Additional observations from a re-analysis of the deposited data

How the results depend on the processing

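Of 152 tested values of the 9 antagonist probes under 17 alternatives, 144 kept their direction and their side of the threshold. The falls of Dkk2 with normexp and of the dimmer Sfrp1 probe with the slide as a block were lost, Dkk3 gained a call under 4 alternatives, and the brighter Sfrp1 probe (-0.17) and Wif1 (-0.067) changed sign with spike-in scaling, which moves all probes down. The cause of the other changes was not tested. That scaling gave 9931 lower and 3970 higher probes in all, against 5996 and 9330 with the percentile scaling, and 41 lower Wnt pathway genes against 23. Without a filter on dim probes 2 antagonist probes were higher, the added one being Kremen2 (adjusted p = 0.000692), too dim on every array. Leaving out each array in turn gave 5 to 6 lower and 1 higher antagonist probes, 20 to 26 lower and 16 to 19 higher pathway genes, and 4908 to 7407 lower and 7593 to 9867 higher probes in all. With the replicate block 6098 probes were lower and 9431 higher, and 5 and 1 antagonist probes. The deviations of same-numbered arrays correlated at 0.143, 0.0991 and 0.271. With no such values for differently numbered arrays, these do not show whether the numbers pair the samples. The main test did not pair them. Among the genes named Sost and Gsk3b lost their calls under the block. Dim signal limits Sfrp2, Kremen2 and the second Dkk1 probe, for which no difference could be measured.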

Other observations

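Probes of 1 gene differed for other genes of the pathway too, and these were picked after their values were seen. Draxin, a secreted guidance protein that also inhibits Wnt signals, did not pass with its brightest probe, which had signals of 186, 173 and 170 in miR-29 cells and 179, 231 and 207 in control cells (-0.22, adjusted p = 0.115). Its other 2 probes were not well above background in control cells and were tested only through their signal in miR-29 cells, where they were at least 2.3-fold and 1.31-fold higher. For the first of them the signals were 20.8, 24.9 and 22.2 in miR-29 cells, against 3.47, 3.37 and 6.33 in control cells. Cd44, a hyaluronan receptor listed as a beta-catenin target, fell with 1 probe (-0.88, adjusted p = 0.000172), while its brightest probe did not pass (-0.25, adjusted p = 0.0978). Other genes counted as not past the threshold had a dimmer probe that passed. It fell for Fzd5 (-0.63, adjusted p = 0.000707), Lgr4 (-0.30, adjusted p = 0.0106), Ryk (-0.22, adjusted p = 0.0321) and Fzd3 (-0.24, adjusted p = 0.04595). Dimmer probes rose for Csnk1a1 (0.42 and 0.24, adjusted p = 0.00569 and 0.0104) and Tcf7l2 (0.26, adjusted p = 0.046). A further probe of Lgr4, Fzd3 and Tcf7l2 did not pass.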
